A study of Homo sapiens with 4 samples.

Results

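MYC and the genes of ribosome assembly in the nucleolus were examined in the human breast cancer cell line MDA-MB-468, as 44 listed genes. They comprise MYC, its dimer partner MAX, subunits and factors of RNA polymerase I, and proteins that modify, cut and fold ribosomal RNA. Each gene was read at its brightest Illumina probe, by mean signal over the 4 arrays, among probes with a detection p-value under 0.05 on at least 2 arrays. Of the 44 genes 40 were measured in this way, among 11311 genes in all. The 4 others were not measured: the probe of NPM1 listed in the platform annotation, annotated to 1 transcript record, was not detected on any array, and no probe is listed there for GNL3, DDX18 or EBNA1BP2.

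The arrays held RNA of 2 samples labelled as knockout of mH2A1.2 and of 2 wild type samples of the same line. mH2A1.2, or macroH2A1.2, is a splice form of a histone H2A variant encoded by MACROH2A1. The series title links it to osteoclast formation induced by breast cancer cells and to the histone methyltransferase EZH2. The labels name no treatment or time, and they do not say how the gene was removed, whether the knockout cells are 1 clone, or whether the replicates are separate cultures. The p-values therefore reflect only how far these samples spread, and that spread may be technical.

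Ribosomes are built around ribosomal RNA that RNA polymerase I transcribes in the nucleolus. Small nucleolar ribonucleoproteins (snoRNPs) then modify that RNA, and separate sets of assembly factors shape the small and the large subunit. MYC is a transcription factor that binds the E-box sequence CACGTG together with MAX, and it is known for activating genes at every step of this pathway in growing cells. MYC lies on chromosome 8, as do the large subunit factors BOP1 and RRS1.

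All values below are log2 signals after background correction and quantile normalization, and a difference is knockout minus wild type with limma's moderated standard error. Knockout replicate 2 stood apart from the other arrays. Gaps of more than 2-fold to each wild type array were found in 1543 and 1183 genes, against 376 and 416 genes for knockout replicate 1 and 42 genes between the wild type arrays. MACROH2A1 read 12.32 and 12.12 on the knockout arrays, against 13.04 and 12.96 on the wild type arrays, at its brightest probe. Of its other detected probes, ILMN_1746171 read 9.68 and 9.46 in knockout, against 10.67 and 10.54 in wild type, and ILMN_1674034 read 9.72 and 9.30 in knockout, against 8.90 and 8.56 in wild type. The epithelial genes EPCAM, KRT8 and KRT18 and the receptor EGFR were detected on all 4 arrays, while KRT5, KRT14 and CDH1 were detected on none. ERBB2 was detected on all 4 arrays and PGR on none. ESR1 was detected on the 2 knockout arrays only, at 6.07 and 6.07, against 5.91 and 5.91 in wild type. Of markers of other cell types, all 4 endothelial genes and the leukocyte genes PTPRC, CD3E and LYZ were undetected on every array. The leukocyte gene CORO1A was detected on 3 arrays. Summed linear signals of 5 leukocyte markers were 420 and 577 on the knockout arrays, against 340 and 346 on the wild type arrays, with CD14 at 7.45 and 8.36, against 6.63 and 6.64. The sums of 8 fibroblast markers were 497 and 497, against 491 and 490, but 5 of the 8 summed probes were detected on no array. Among these markers COL1A1 was detected on the 2 knockout arrays only, at 6.32 and 6.16, against 5.97 and 5.97 in wild type. COL1A2 and PDGFRA were each detected on 1 array. Another probe of DCN, not the 1 summed, was detected on all 4 arrays, at 5.89 and 5.98 in knockout, against 5.95 and 5.91 in wild type. The part of these signals in the results was not tested.

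All 40 measured genes had a difference below 0, as did 50.8% of all 11311 genes. This direction depends on the scaling for 6 of them: with arrays scaled to equal medians, which moved the median of all genes to 0.12, 34 of 40 remained below 0 and 38 lay below that shifted median. The median over the 40 genes was -0.62, against -0.0048 over all genes. No gene passed limma's moderated test with Benjamini-Hochberg adjustment over all genes at 0.05, neither among the 40 nor elsewhere (0% of genes called). Adjusted limma p-values of the 40 ran between 0.132 and 0.945, and the smallest of any gene was 0.122. Without adjustment, 17 of the 40 (42.5%) had a limma p under 0.05 with a lower value in knockout, against 10.5% of all genes, and 0 had one with a higher value, against 9.6%. This count depends on the scaling too: with equal medians 2 of the 40 were lower at that limit, against 1.85% of all genes. In 31 of the 40 (77.5%) both knockout arrays read below both wild type arrays, against 28.2% of all genes, and in 0 did both read above, against 25.9%. Counting either direction, 20.1% of all genes had an unadjusted limma p under 0.05 and 54.1% had groups that did not overlap. A difference of 2-fold or more was seen in 6 of the 40 genes, all lower in knockout, against 4.95% of all genes in either direction. Of the 40 genes, 25 were among the lowest 10% of differences.

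Other genes of similar signal did not lean as far to lower values in knockout. Among 3524 other genes whose mean log2 signal lay between the lower and upper quartile of the 40, at 8.52 and 11.25, the median difference was -0.04. Of those genes 52.7% were below 0, 32.1% had their lowest values on both knockout arrays, and 14.5% were lower with an unadjusted limma p under 0.05. RNA was compared at equal array scale, so a change in total RNA per cell would not be seen. Each array read RNA of many cells, so less of these transcripts per cell cannot be told apart from fewer cells that express them.

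Both knockout arrays showed the pattern, to different extents. Over the 40 genes knockout replicate 1 had a median of -0.39 and knockout replicate 2 one of -0.78, each against the mean of the same wild type arrays. Knockout replicate 1 read below that mean in 37 of 40 genes, and knockout replicate 2 in 38. A shortfall of more than 2-fold was seen in 0 of the 40 genes on knockout replicate 1 and in 16 on knockout replicate 2, as against 144 and 537 of all genes. Leaving out knockout replicate 2 moved the difference by more than 1.5 times in 27 of the 40 genes, and leaving out knockout replicate 1 did so in 19. Any array left out leaves a lone array in its group, and the fit then assumes that it varied like the 2 arrays of the other group. Counts of genes that passed in such fits are given with the processing alternatives below, and nothing is read from them. The wild type arrays differed little from each other over these genes, with wild type replicate 2 below replicate 1 in 22 of 40 and a median gap of -0.02.

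**Figure D1:**
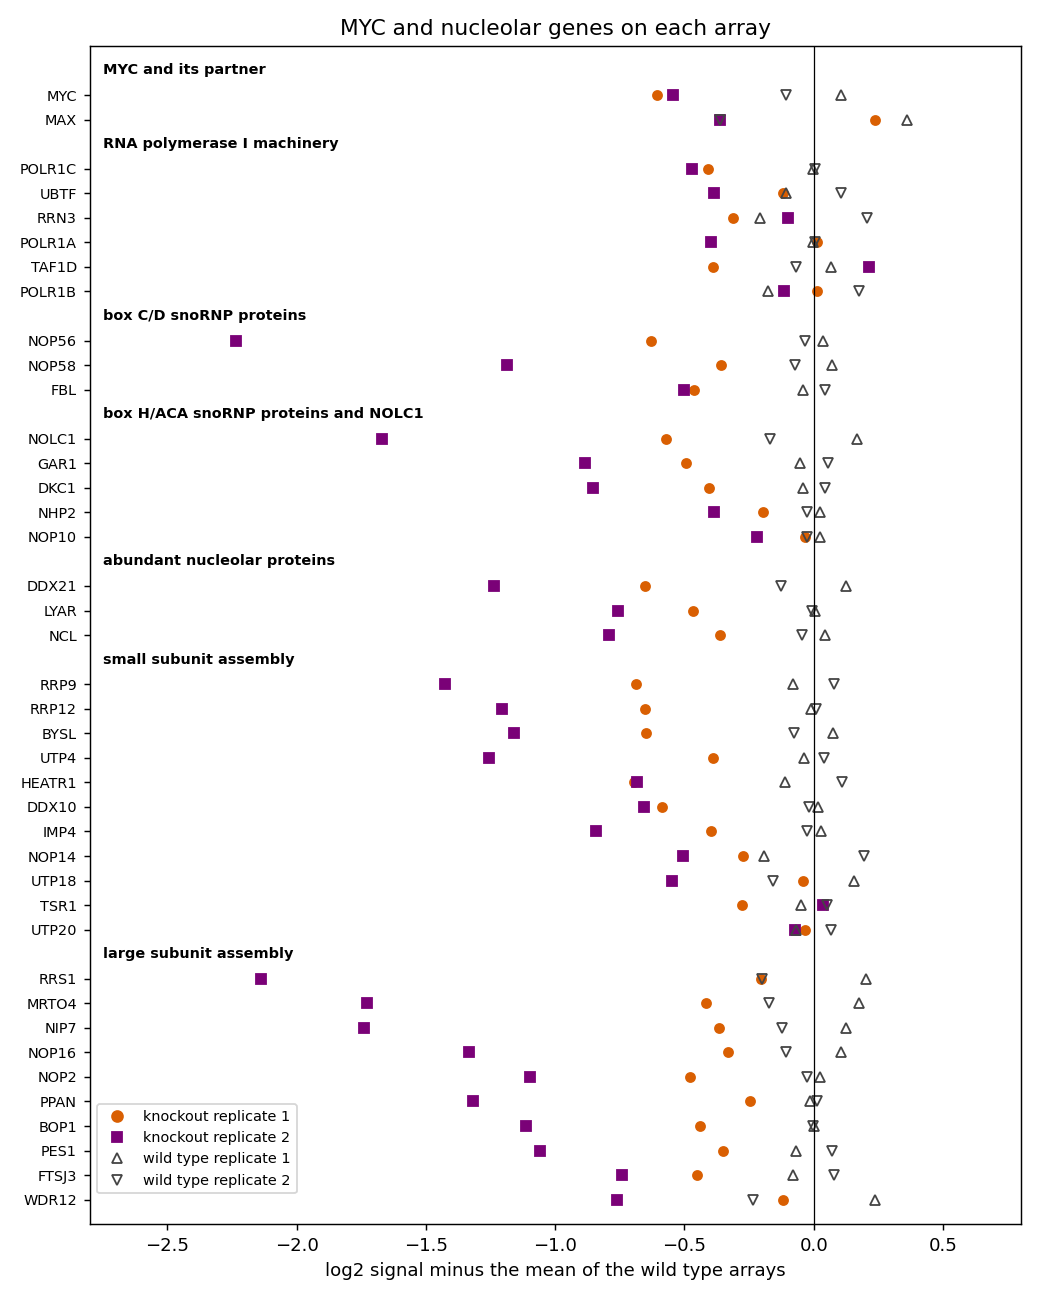
Log2 signal of each of the 40 measured genes on every array, minus the mean of the wild type arrays, grouped by role. Filled symbols are the knockout arrays and open triangles the wild type arrays. Knockout replicate 2 lies farthest to the left in most rows, down to -2.23 for NOP56, while MYC, HEATR1, DDX10 and FBL show both knockout arrays close together. Each row is 1 gene, and the direction of MAX, NOP10, POLR1B, RRN3, TAF1D and TSR1 turns when arrays are scaled to equal medians.

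The E-box CACGTG, which reads the same on both strands, was searched for in RefSeq promoter windows of 300 bases, 250 before and 50 from the transcription start (GRCh38.p14), taking the first window listed for each gene. Of the 44 genes 37 have a window, and MYC, BOP1, RRS1, NOLC1, RRP12, NOP58 and DDX18 have none. The sequence occurred in the windows of 12 of the 34 measured genes that have one (35.3%), against 10.4% of 9105 measured genes and 7.43% of 27305 genes in the table. With every window of a gene counted, the shares were 44.1%, 12.7% and 8.77%. In all 12 genes a copy began within 40 bases of the start, a range chosen after the positions were seen, as it did in 33.2% of the 945 measured genes that hold the sequence. Among measured genes with a window, 7 of 10 of small subunit assembly and 3 of 8 of large subunit assembly hold it. Of RNA polymerase I 0 of 6 do, and of abundant nucleolar proteins 0 of 3. Of the 37 listed genes with a window, measured or not, 13 hold it, but it was not particular to them. Counted so in the further lists below, 11 of 22 MYC targets and 6 of 16 genes of RNA polymerase III do. So do 14 of 39 small and 11 of 39 large subunit factors. Proliferation has 3 of 11, the MYC network 3 of 13, the exosome 2 of 14, and polymerase I 1 of 9. SnoRNA hosts have 1 of 11 and nucleolar stress 0 of 5. A match is a description of the letters, not of binding.

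The 12 genes with the E-box had a median difference of -0.66, and the 22 without it -0.59. Among all measured genes these medians were -0.02 with the sequence and -0.00035 without. The windows of the 5 genes with the smallest p among those 12 are shown, since they carry the motif of the MYC and MAX dimer next to the start site. Capitals mark CACGTG, and each window ends 50 bases into the transcript.
BYSL, chr6:41921249-41921548, plus strand: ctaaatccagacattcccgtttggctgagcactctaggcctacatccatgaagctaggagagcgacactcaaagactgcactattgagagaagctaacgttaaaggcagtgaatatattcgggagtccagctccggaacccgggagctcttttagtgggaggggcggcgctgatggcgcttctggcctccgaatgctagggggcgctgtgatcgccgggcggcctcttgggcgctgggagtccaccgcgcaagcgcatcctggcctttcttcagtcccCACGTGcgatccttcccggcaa
FBL, chr19:39846330-39846629, minus strand: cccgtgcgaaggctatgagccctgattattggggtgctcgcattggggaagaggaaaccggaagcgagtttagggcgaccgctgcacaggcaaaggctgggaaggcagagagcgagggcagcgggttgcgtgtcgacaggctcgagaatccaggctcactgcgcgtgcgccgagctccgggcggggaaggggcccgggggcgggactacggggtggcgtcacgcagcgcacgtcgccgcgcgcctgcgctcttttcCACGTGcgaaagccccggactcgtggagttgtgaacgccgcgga
RRP9, chr3:51941855-51942154, minus strand: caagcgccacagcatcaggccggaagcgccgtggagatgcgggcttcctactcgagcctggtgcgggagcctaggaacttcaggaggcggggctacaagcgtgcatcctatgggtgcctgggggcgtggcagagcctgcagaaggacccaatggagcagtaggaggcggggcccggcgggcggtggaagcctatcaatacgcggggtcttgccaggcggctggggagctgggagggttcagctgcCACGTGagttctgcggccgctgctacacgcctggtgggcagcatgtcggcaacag
NOP2, chr12:6568242-6568541, minus strand: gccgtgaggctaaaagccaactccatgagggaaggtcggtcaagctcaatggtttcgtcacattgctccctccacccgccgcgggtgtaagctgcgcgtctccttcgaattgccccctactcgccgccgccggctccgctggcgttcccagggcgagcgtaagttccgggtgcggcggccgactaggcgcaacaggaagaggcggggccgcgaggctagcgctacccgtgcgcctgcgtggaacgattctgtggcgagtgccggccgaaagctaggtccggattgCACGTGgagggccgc
IMP4, chr2:130342647-130342946, plus strand: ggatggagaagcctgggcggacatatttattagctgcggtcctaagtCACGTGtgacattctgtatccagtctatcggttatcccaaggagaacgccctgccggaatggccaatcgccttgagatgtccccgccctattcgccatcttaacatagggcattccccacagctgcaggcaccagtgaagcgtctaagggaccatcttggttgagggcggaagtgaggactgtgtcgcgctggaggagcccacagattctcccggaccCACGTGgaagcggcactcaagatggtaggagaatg

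In BYSL the E-box begins 29 bases into the transcript, counting the start site as 1, in FBL at base 7 and in NOP2 at base 36. In RRP9 it begins at position -5, before the start. IMP4 has 2 copies, at positions -203 and 16. UTP20 also holds a copy, at position -10, and NOP10 has 2, and these genes differed by only -0.05 and -0.13.

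MYC read lower on both knockout arrays and MAX did not. MYC log2 signals were 11.16 and 11.22 in knockout, against 11.87 and 11.66 in wild type. The knockout arrays lay close together, and both were below both wild type arrays. The difference was -0.57 ± 0.14 (SE, n = 2 per group). This is 1.49-fold lower, at an adjusted limma p of 0.16. A dimmer MYC probe read 8.60 and 8.86 in knockout, against 9.57 and 9.65 in wild type, a difference of -0.88. With arrays scaled to equal medians the MYC difference was -0.38. MAX, which lets MYC bind DNA, had 7.03 and 6.43 in knockout, against 7.15 and 6.43 in wild type. Its groups overlapped, with a difference of -0.06 ± 0.34 (SE, n = 2 per group). Of 3 dimmer MAX probes, annotated to other transcript records, 2 had lower values in knockout without overlap, 1 at 6.38 and 6.06 in knockout, against 6.81 and 6.67 in wild type, and 1 with a difference of -0.09.

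Of the 6 genes of RNA polymerase I transcription, POLR1C was the only 1 with an unadjusted limma p under 0.05. POLR1C, a subunit shared by RNA polymerases I and III, had 10.41 and 10.35 in knockout, against 10.82 and 10.82 in wild type. Its difference was -0.44 ± 0.11 (SE, n = 2 per group; limma adjusted p = 0.171), and the groups did not overlap. With equal medians it was -0.25. UBTF, which binds and opens the ribosomal RNA genes, had 6.96 and 6.69 in knockout, against 6.97 and 7.18 in wild type. Knockout replicate 1 lay next to wild type replicate 1 there, and the UBTF difference was -0.25 ± 0.16. The catalytic subunits POLR1A and POLR1B differed by -0.19 ± 0.18 and -0.05 ± 0.17, in signals near background. RRN3, which brings the polymerase to its promoter, differed by -0.21 ± 0.20. TAF1D, a subunit of the promoter selectivity factor, differed by -0.09 ± 0.24. The groups of these 4 genes overlapped. The median of the 6 genes was -0.20, the smallest in size of the role groups.

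The box C/D snoRNPs place methyl groups on the ribose of ribosomal RNA. Their 3 listed core proteins all read below both wild type arrays on both knockout arrays, as did 28.2% of all genes. FBL, the methyltransferase fibrillarin, had 11.60 and 11.56 in knockout, against 12.01 and 12.10 in wild type, a difference of -0.48 ± 0.12 (SE, n = 2 per group; limma adjusted p = 0.162). The FBL values were close within each group, and the difference was -0.27 with equal medians. NOP56, a scaffold of the particle, had 11.98 and 10.37 in knockout, against 12.64 and 12.57 in wild type. This was the lowest difference of the 40 genes, -1.43 ± 0.57, or 2.69-fold lower. Knockout replicate 2 lay far below replicate 1, and the adjusted limma p was 0.271. Its dimmer probes differed by -1.40 and -1.70. NOP58, its partner, had 11.01 and 10.18 in knockout, against 11.44 and 11.30 in wild type, with -0.77 ± 0.31. Each knockout array alone gave -0.63 and -2.23 for NOP56, and -0.36 and -1.19 for NOP58.

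The box H/ACA snoRNPs convert uridine to pseudouridine, and their proteins also belong to telomerase. DKC1, the pseudouridine synthase dyskerin, had 11.38 and 10.93 in knockout, against 11.75 and 11.83 in wild type, a difference of -0.63 ± 0.19 (SE, n = 2 per group; limma adjusted p = 0.206). GAR1 had 10.70 and 10.30 in knockout, against 11.13 and 11.24 in wild type, with -0.69 ± 0.18 (limma adjusted p = 0.171). The other core proteins differed less, NHP2 by -0.29 ± 0.13 and NOP10 by -0.13 ± 0.13, with NOP10 at 12.86 and 12.68 in knockout, against 12.92 and 12.87 in wild type. NOLC1, a nucleolar protein that accompanies snoRNPs of both kinds, had 9.63 and 8.53 in knockout, against 10.37 and 10.03 in wild type. Its difference was -1.12 ± 0.41 (limma adjusted p = 0.25), at -0.57 for knockout replicate 1 and -1.67 for knockout replicate 2. In all 5 genes both knockout arrays read below both wild type arrays, against 28.2% of all genes.

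The 3 measured genes of abundant nucleolar proteins each had an unadjusted limma p under 0.05. DDX21, an RNA helicase of ribosomal RNA transcription and processing, had 11.20 and 10.62 in knockout, against 11.98 and 11.73 in wild type. Its difference was -0.94 ± 0.25 (SE, n = 2 per group), or 1.92-fold lower. NCL, nucleolin, had 12.12 and 11.69 in knockout, against 12.53 and 12.44 in wild type, with -0.58 ± 0.19, or -0.37 with equal medians, and its dimmer probe differed by -0.59. LYAR, a nucleolar zinc finger protein, had 10.62 and 10.33 in knockout, against 11.09 and 11.08 in wild type, with -0.61 ± 0.15. Both knockout arrays read below both wild type arrays in each of these genes, against 28.2% of all genes.

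Small subunit assembly held the genes with the smallest p of the 40. DDX10, an RNA helicase of early assembly, had 10.26 and 10.19 in knockout, against 10.86 and 10.83 in wild type. Its difference was -0.62 ± 0.12 (SE, n = 2 per group), with an adjusted limma p of 0.132. HEATR1, a large scaffold of the small subunit processome, had 8.83 and 8.83 in knockout, against 9.41 and 9.63 in wild type, with -0.69 ± 0.14 (limma adjusted p = 0.141). In both genes the knockout arrays agreed within 0.1, as they did in 6 of the 40. BYSL, bystin, had 10.08 and 9.57 in knockout, against 10.81 and 10.66 in wild type, with -0.90 ± 0.22. RRP12, known in yeast for export of pre-ribosomes, had 8.78 and 8.23 in knockout, against 9.43 and 9.44 in wild type, with -0.93 ± 0.22. RRP9, a protein of the U3 snoRNP, had 7.27 and 6.53 in knockout, against 7.88 and 8.04 in wild type, with -1.06 ± 0.28, or 2.08-fold lower. With no background correction the RRP9 difference was -0.62. IMP4, which joins the U3 snoRNP, differed by -0.62 ± 0.19, and these 6 genes are those with an unadjusted limma p under 0.05 among the 11.

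The remaining small subunit genes varied more. UTP4, a processome subunit, had 11.45 and 10.59 in knockout, against 11.80 and 11.88 in wild type, with -0.82 ± 0.32 (SE, n = 2 per group), and the knockout arrays alone gave -0.39 and -1.26. NOP14 differed by -0.39 ± 0.19 without overlap. UTP18 and TSR1 differed by -0.29 ± 0.23 and -0.12 ± 0.16 with overlapping groups. TSR1, which acts late in small subunit maturation in yeast, was 1 of 5 genes that read higher on knockout replicate 2 than on replicate 1. UTP20 differed by -0.05 ± 0.12, but it was detected on 1 array of each group, so its level is near background. The median of the 11 genes was -0.62.

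Large subunit assembly had the lowest role median, -0.79 over 10 measured genes, and the widest gap between the knockout arrays, with medians of -0.36 and -1.22. BOP1, PES1 and WDR12 form the PeBoW complex, which is needed to process the RNA of the large subunit. BOP1 had 11.15 and 10.48 in knockout, against 11.59 and 11.59 in wild type, a difference of -0.78 ± 0.26 (SE, n = 2 per group; limma adjusted p = 0.223). PES1 had 8.22 and 7.51 in knockout, against 8.50 and 8.64 in wild type, with -0.71 ± 0.27, or -0.44 with equal medians and -0.46 with no background correction. WDR12 had 10.43 and 9.79 in knockout, against 10.79 and 10.31 in wild type, with -0.44 ± 0.30, or -0.25 with equal medians. Knockout replicate 1 lay between the wild type arrays in WDR12, the only 1 of the 10 genes whose groups overlapped. Over all genes, 54.1% had groups that did not overlap. NOP2, an RNA methyltransferase, had 10.37 and 9.75 in knockout, against 10.88 and 10.83 in wild type, with -0.79 ± 0.24 (limma adjusted p = 0.205). Its dimmer probes differed by -1.20 and -1.01. FTSJ3, another RNA methyltransferase, had 8.44 and 8.15 in knockout, against 8.81 and 8.97 in wild type, with -0.60 ± 0.16, or -0.34 with equal medians (limma adjusted p = 0.176).

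Knockout replicate 2 set the size of the difference in the other large subunit genes. RRS1, known in yeast for bringing the 5S ribonucleoprotein into the large subunit, had 9.348 and 7.42 in knockout, against 9.75 and 9.351 in wild type. Its difference of -1.17 ± 0.69 (SE, n = 2 per group) was -0.20 with knockout replicate 1 alone and -2.14 with knockout replicate 2 alone. MRTO4, a stand-in for a stalk protein during assembly, had 9.18 and 7.86 in knockout, against 9.77 and 9.42 in wild type, with -0.41 and -1.73 for the 2 knockout arrays alone. NIP7 had 10.80 and 9.43 in knockout, against 11.30 and 11.05 in wild type, with -0.37 and -1.74. NOP16 gave -0.33 and -1.33, and PPAN -0.25 and -1.32, and PPAN was -0.47 with no background correction. PPAN is also part of a readthrough transcript with its neighbour P2RY11, and whether its probe reads that transcript was not tested. These 5 genes, with NOP56 and NOLC1, are the 7 whose knockout replicate 2 read more than 1 below replicate 1.

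**Figure D2:**
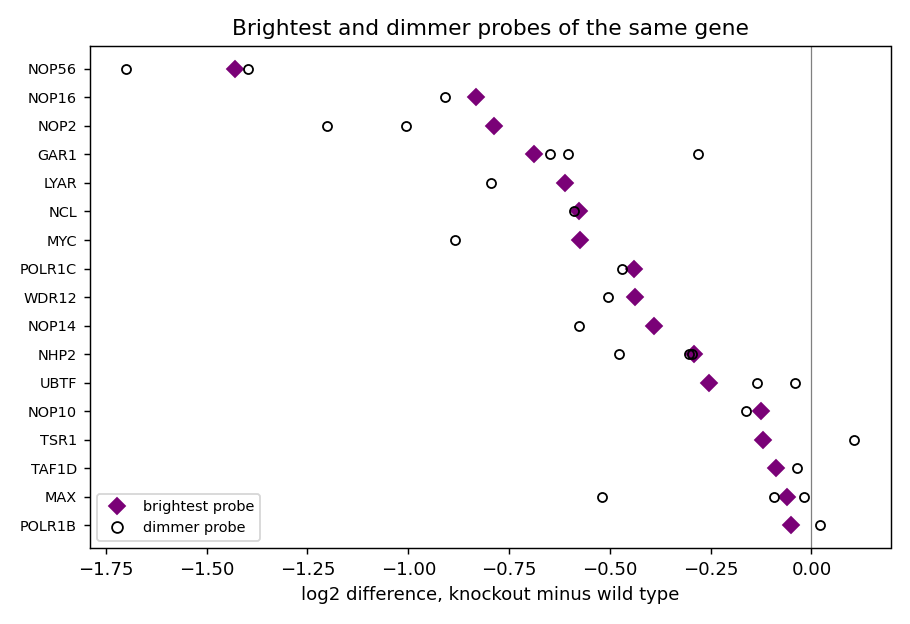
Log2 difference, knockout minus wild type, for the 17 genes with more than 1 kept probe. Diamonds are the brightest probe and open circles the 26 dimmer ones. Of the dimmer probes 24 lie below 0, and 1 probe each of POLR1B and TSR1 lies above it.

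Dimmer probes of the same genes gave a second reading from the same RNA. For 17 of the 40 genes there were 26 further kept probes, of which 24 differed below 0 and 2 above, with a median of -0.49. The 2 exceptions, at 0.02 for POLR1B and 0.11 for TSR1, were each detected on 3 of the 4 arrays. GAR1 probes spread widely, from -0.69 at the brightest to -0.28 at the dimmest.

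Genes of the same pathway that are not among the 44 had lower values in knockout too. Of 43 further small subunit factors 42 were below 0, with a median of -0.46. In 36 both knockout values were the lowest of the 4, against 28.2% of all genes. The 4 with the smallest p were DIMT1, an rRNA methyltransferase (-1.16 ± 0.13; SE, n = 2 per group), NOL6 (-0.96 ± 0.15), PNO1, an RNA-binding assembly factor (-1.47 ± 0.24), and UTP14A (-0.82 ± 0.14). DIMT1 read 10.40 and 10.29 in knockout, against 11.57 and 11.45 in wild type, so that each knockout array lay over 1 below each wild type array. Of 44 further large subunit factors 40 were below 0, with a median of -0.50. In 37 both knockout values were the lowest of the 4, against the same 28.2%. RRP1B differed by -0.94 ± 0.15, RPF1 by -1.17 ± 0.21, NLE1 by -0.68 ± 0.14 and LAS1L, a subunit of an RNA-cutting complex, by -0.64 ± 0.13. EIF6, which keeps the subunits apart, was an exception chosen after its values were seen, with 12.44 and 12.16 in knockout, against 11.48 and 11.92 in wild type. Without adjustment 18 genes of each list were lower at a limma p under 0.05, against 10.5% of all genes, and 1 gene, EIF6, was higher. None of either list passed over all genes.

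Lists of the polymerases and the exosome had medians below 0. All 10 further RNA polymerase I genes were below 0, with a median of -0.37. In 7 both knockout values were the lowest of the 4, against 28.2% of all genes. The 4 with the smallest p were POLR1F (-0.81 ± 0.13; SE, n = 2 per group), TAF1A (-0.74 ± 0.13), POLR1G (-0.58 ± 0.24) and TAF1C (-0.28 ± 0.12). Of 20 genes of RNA polymerase III, which makes 5S ribosomal RNA and transfer RNA, 16 were below 0, with a median of -0.47. In 14 both knockout values were the lowest of the 4, against the same 28.2%. In 2, POLR3GL (0.62 ± 0.29) and GTF3C3 (0.34 ± 0.24), both were the highest, against 25.9% of all genes. POLR3G differed by -0.90 ± 0.15, POLR3E by -0.77 ± 0.14, POLR3C by -0.59 ± 0.14 and GTF3C5 by -0.47 ± 0.13. Of 13 genes of the RNA exosome and related nucleases 12 were below 0, with a median of -0.44, led by EXOSC5 (-1.12 ± 0.19), EXOSC1 (-0.48 ± 0.12), XRN2 (-0.30 ± 0.12) and EXOSC2 (-0.96 ± 0.40). At an unadjusted limma p under 0.05, 2 of 10 genes of polymerase I, 8 of 20 of polymerase III and 2 of 13 of the exosome list were lower, against 10.5% of all genes. The exosome and polymerase I counts are small and near that share, and nothing is read from them. In these lists 0 genes were higher at that limit, and 0 passed over all genes.

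**Figure D3:**
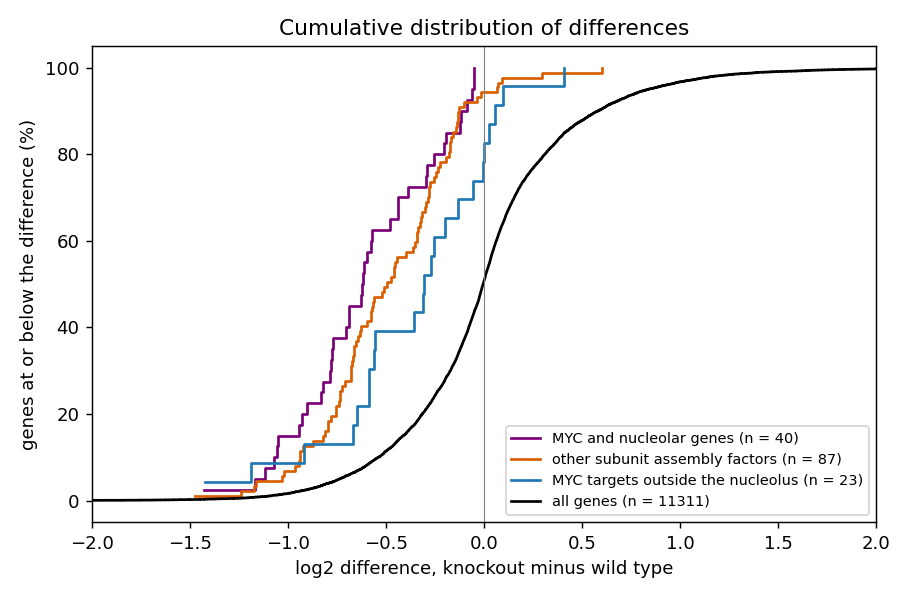
Share of genes at or below each log2 difference, knockout minus wild type, for the 40 MYC and nucleolar genes, 87 other subunit assembly factors, 23 MYC targets outside the nucleolus and all 11311 genes. The curve of the 40 genes lies left of 0 over its whole length, with 6 genes above 0 when arrays are scaled to equal medians, and the curve of all genes crosses 0 near its middle.

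Known MYC targets outside the nucleolus leaned the same way by a smaller median. Of 23 measured targets 19 were below 0, with a median of -0.31, and 6 were lower and 0 higher at an unadjusted limma p under 0.05, against 10.5% and 9.6% of all genes. The 4 with the smallest p were all lower. CAD, of pyrimidine synthesis, differed by -0.56 ± 0.13 (SE, n = 2 per group), and ODC1, of polyamine synthesis, by -1.19 ± 0.29. SHMT2, of one-carbon metabolism, differed by -0.56 ± 0.14, and CDC25A, a cell cycle phosphatase, by -1.43 ± 0.38. LDHA went the other way without overlap, with 14.09 and 13.73 in knockout, against 13.56 and 13.45 in wild type. On the separate knockout arrays the list had medians of -0.12 and -0.42. Of 11 other members of the MYC network 7 were below 0, with a median of -0.13, which was 0.09 with arrays scaled to equal medians. FBXW7, which marks MYC for degradation, differed by -0.52 ± 0.17, and MYCBP by -0.31 ± 0.12. MNT and MXD3, which pair with MAX and repress, read higher. Of others of this kind, MGA differed by -0.29 ± 0.14 without overlap, while the groups of MXD4 (0.54 ± 0.47), MXD1 (-0.18 ± 0.37) and MXI1 (-0.11 ± 0.14) overlapped. Knockout replicates 1 and 2 alone gave -0.10 and 1.19 for MXD4, and -0.68 and 0.33 for MXD1. MNT had 7.60 and 8.61 in knockout, against 7.18 and 7.43 in wild type, with 0.80 ± 0.38. MXD3 had 7.23 and 7.63, against 6.87 and 7.08, with 0.46 ± 0.19. MNT was 0.30 with knockout replicate 1 alone and 1.30 with knockout replicate 2 alone. Over all genes, 0 members of these lists passed.

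**Figure D4:**
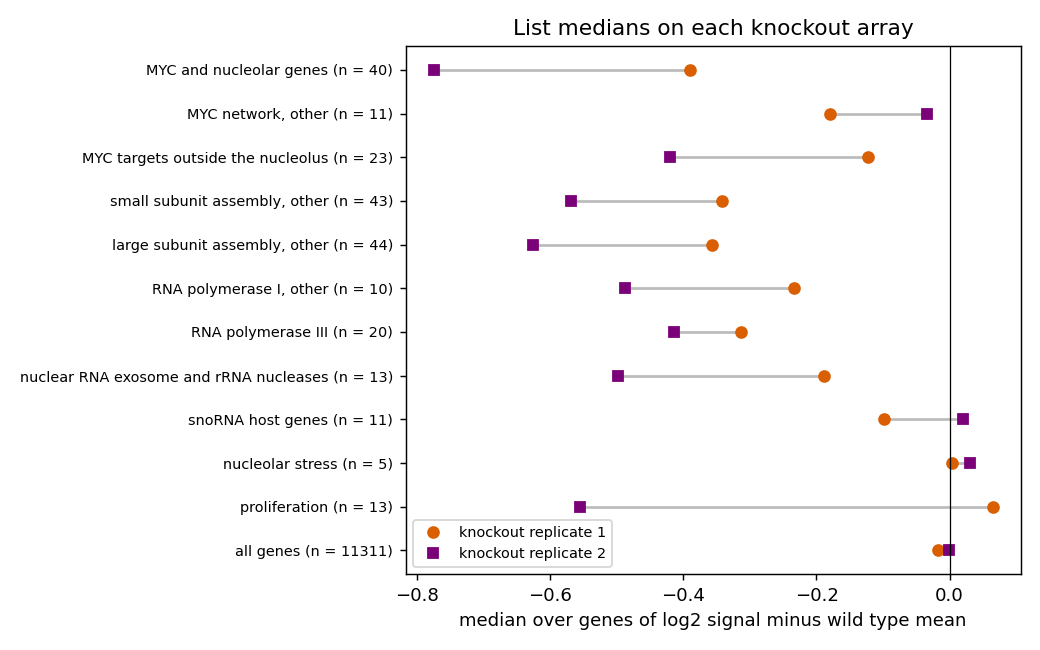
Median over each gene list of the log2 signal minus the wild type mean, for knockout replicate 1 (circles) and knockout replicate 2 (squares). The 40 genes have the lowest medians on both arrays, -0.39 and -0.78, and all genes lie near 0. Proliferation genes lie at 0.06 and -0.55, and the median difference of the other MYC network genes is 0.09 when arrays are scaled to equal medians.

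Some related genes did not share the direction. Of 11 host genes of snoRNAs 5 were below 0, with a median of 0.04. Among them SNHG1 differed by -0.71 ± 0.20 and SNHG15 by -0.87 ± 0.36 (SE, n = 2 per group), against 0.24 ± 0.21 for SNHG7 and -0.13 ± 0.12 for CWF19L1. The 5 measured genes of the nucleolar stress response had a median of 0.02. CDKN1A, the cell cycle inhibitor p21, had 9.82 and 11.00 in knockout, against 9.86 and 10.37 in wild type. The ribosomal proteins RPL11 and RPL5 differed by 0.09 ± 0.12 and -0.07 ± 0.13, and MDM4 by -0.02.

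Proliferation genes differed in how far both knockout arrays lay from wild type, and their part in the results was not tested. Of 13 such genes 11 were below 0, with a median of -0.39, at 0.06 for knockout replicate 1 and -0.55 for knockout replicate 2. In 6 of the 13 (46.2%) the values were lower in knockout without overlap, against 28.2% of all genes. At an unadjusted limma p under 0.05, 1 of the 13, BUB1, was lower and 0 were higher, against 10.5% and 9.6% of all genes. These counts are small, and nothing is read from them. BUB1 differed by -0.60 ± 0.17 (SE, n = 2 per group), TOP2A by -0.39 ± 0.15, MCM7 by -0.50 ± 0.19 and MCM2 by -0.57 ± 0.23, all 4 without overlap, and none of the 13 passed over all genes.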

How the data were processed

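Total RNA of 2 knockout and 2 wild type samples was hybridised as biotin-labelled cRNA to Illumina bead arrays of 1 chip, per the labels. The deposited table gives linear mean signal intensity for 47230 probes, each with the scanner software's detection p-value, per the file headers. The submitters' processing notes list GenomeStudio without its version. A second table holds log2 values the authors deposited for 47164 probes, with medians between 6.45 and 6.46 and a normalization not given in the sources used here.

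Signals were background corrected with limma's normexp method (limma 3.58.1, R 4.3.3), with control-probe means and variances inferred from the detection calls and 16 added as offset, then quantile normalized. The offset shrinks differences of dim probes. The filter kept 19752 probes. The platform annotation gave 1 symbol for 30074 probes. For 30035 of them the RefSeq symbol of the same gene number was used, whether or not it differed. Each gene was represented by its brightest kept probe. Groups were compared with lmFit and eBayes (two-sided moderated test), adjusted over 11311 genes at 0.05. Simulated data with independent noise for each gene were used to check the step. They held no departure of a whole array such as that of knockout replicate 2. Whether the p-values hold under such a departure was not tested. With 2 arrays in each group, their number limits the precision.

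The 44 genes, the further lists and the rule for naming were chosen with earlier results of these data known, so no list was tested as a set. All 44 genes and up to 4 genes with the smallest p of each further list were to be named. Samples with the same replicate number also had consecutive array letters on the chip, A with B and C with D. The labels state no pairing, and a part of array position in the results was not tested.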

Additional observations from a re-analysis of the deposited data

How the results depend on the processing

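The direction of 32 of the 40 genes was the same under all alternatives that measured them. Alternatives were each array left out, the replicate block, the authors' values, the average over a gene's kept probes, eBayes with a trend or robust, a detection limit of 0.01 on 4 arrays or none, 50 as offset, equal medians, and uncorrected background. The median over the genes was -0.42 with equal medians and -0.55 with no background correction. Leaving out 1 array it ran from -0.78 to -0.39, the count of these genes that passed over all genes from 0 to 24, the count of all genes that passed from 0 to 3262 (291 without knockout replicate 2), the count below 0 from 37 to 39, and the count lower at an unadjusted limma p under 0.05 from 1, without either wild type array (2.88% and 2.71% of all genes), to 31, without knockout replicate 1 (19.9% of all genes). That count was 2 with equal medians, where 1.85% of all genes were lower and 86% of genes with an unadjusted p under 0.05 were higher in knockout, against 47.7% as reported. With equal medians 6 genes turned positive, MAX at 0.20, NOP10 at 0.075, POLR1B at 0.043, RRN3 at 0.039, TAF1D at 0.19 and TSR1 at 0.11, as did the median of the other MYC network genes at 0.0897. MAX was 0.011 on the authors' values. With 1 array left out, MAX ran from -0.42 to 0.30, POLR1A from -0.40 to 0.011, POLR1B from -0.23 to 0.12, RRN3 from -0.42 to 0.00094, TAF1D from -0.39 to 0.21, TSR1 from -0.28 to 0.038, UTP20 from -0.12 to 0.014 and the proliferation median from -0.55 to 0.065. The cause was not tested. With the replicate block 25 of the 40 were lower at an unadjusted limma p under 0.05, against 12.9% of all genes, and 0 passed over all genes. Deviations of same-numbered arrays from their group means correlated at r = 0.44 across genes, which are not independent replicates, and with 2 pairs this does not show that the numbers pair the samples.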
